A study of Mus musculus with 14 samples.

Results

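The smooth muscle contractile genes were followed as a set of 10 genes that myofibroblasts share with smooth muscle: Acta2, Actg2, Tagln, Cnn1, Tpm1, Tpm2, Lmod1, Myh11, Myl9 and Srf. They were chosen by name and by no threshold on their values, but with earlier results of these data known. All 10 were found among the 16481 genes listed for mouse pancreatic stellate cells (PSCs) and all 10 among the 54532 genes listed for mouse livers.

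RNA-Seq was performed on PSCs and on livers of tumor-bearing mice. PSCs from 3 preparations were cultured on Matrigel-coated plates, and each preparation gave 1 library with the solvent DMSO and 1 library with 25 μM Yoda1, an agonist of the mechanically gated calcium channel PIEZO1. The treatment time is given as 24 hours in one place of the study and as 72 hours in another, so the time is uncertain. Livers were taken from 2 WT mice, from 3 WT mice given GSK219, an antagonist of the calcium channel TRPV4, and from 3 TRPV4-KO mice. All mice of the liver experiment carried KPCY pancreatic tumor cells injected into the pancreas, and livers were taken 20 days after surgery. The mice called WT in the study carried a floxed Piezo1 gene without Cre, and mice were 8 to 12 weeks old. TRPV4-KO mice lacked Trpv4 in every host cell, while the injected tumor cells kept it. GSK219 was given at 10 mg/kg by gavage every 24 hours. Whether the WT mice of this comparison received the vehicle by gavage is not given in the sources used here.

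A quiescent stellate cell stores vitamin A and holds little contractile protein. Once activated, it can become a myofibroblast, which makes collagen and builds stress fibers from α-smooth muscle actin and its partners. Many genes of this apparatus are switched on by serum response factor, the product of Srf, which binds the CArG box together with cofactors of the myocardin family. In cancer-associated fibroblasts, high levels of these genes mark the myofibroblastic state.

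Promoters were read for the members because they moved together in PSCs. A RefSeq promoter, 250 bases before to 50 bases after the gene's start in GRCm38.p6, was matched for 7 of the 10 members, all but Actg2, Tagln and Myh11. An exact CArG box, a motif that reads the same on both strands, was found in 2 of the 7 (Srf and Myl9), and 1.63% of all 32851 promoters held one. Allowing 1 mismatch among the 6 central bases added Acta2, and 9.98% of all promoters held a motif at this looser setting. The stretches around these motifs follow, 5′ to 3′ on the gene's strand, with each motif in capitals. That of Srf lies on chr17:46556190-46556269 (minus strand) with 2 exact motifs, starting 82 and 62 bases before the RefSeq start. That of Myl9 lies on chr2:156775278-156775399 (plus strand) with 1 exact motif, 161 bases before the start, and 1 motif with a mismatch, 99 bases before it. That of Acta2 lies on chr19:34255374-34255482 (minus strand) with 2 motifs that each hold 1 mismatch, 84 and 34 bases before the start.
Srf: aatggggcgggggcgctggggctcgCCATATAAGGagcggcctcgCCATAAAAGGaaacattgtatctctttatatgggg
Myl9: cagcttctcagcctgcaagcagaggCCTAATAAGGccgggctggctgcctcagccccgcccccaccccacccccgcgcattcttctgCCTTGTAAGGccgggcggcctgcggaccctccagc
Acta2: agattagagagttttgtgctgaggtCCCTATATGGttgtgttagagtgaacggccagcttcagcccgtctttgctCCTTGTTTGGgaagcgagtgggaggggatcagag
Distances are counted from the start used by RefSeq, which for these 3 genes differs from the start in the gene intervals given below. The windows of Cnn1, Tpm1, Tpm2 and Lmod1 held no such letters. A match describes the sequence and is not evidence of binding.

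PSC libraries held 27312894 to 39070539 reads on listed genes, and liver libraries held 15567031 to 17395299 counts. PSC values are reads divided by one size factor per library and are called normalized read counts here. Of the stellate cell and fibroblast markers, 8 of 10 were listed in PSCs, and their summed value was 776198 to 880168 with DMSO and 421902 to 508505 with Yoda1. Gfap and Lrat, which define stellate cells, were not among the genes listed. Epithelial markers were also present, with Krt8, a keratin, at 22259 to 47725 in the 6 libraries. The sum of the 7 epithelial markers went from 75548 to 58494 in preparation 1, from 73646 to 64454 in preparation 2 and from 104403 to 130977 in preparation 3. Mesothelial markers were present too, with a sum over 5 genes of 10929 to 16027 with DMSO and 15282 to 15741 with Yoda1. In bulk samples, fewer cells of a type and less RNA per cell cannot be told apart. Piezo1, the target of Yoda1, was at 14295 to 16698 with DMSO and at 13819 to 16019 with Yoda1.

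The share of PSC reads on contractile genes was lower with Yoda1 in every preparation. With DMSO, the 10 genes took 1.25%, 1.15% and 1.17% of the reads in preparations 1, 2 and 3. With Yoda1, they took 0.673%, 0.612% and 0.502%. Per kilobase of gene length, the mean normalized read count with DMSO was highest for Acta2, at 72334 ± 3975 (SD, n = 3), which ranked 6 among the 16286 genes with a length. Tagln followed at 44431 ± 1004 per kilobase and Tpm1 at 19697 ± 1013. Myl9, at 10258 ± 1042, and Tpm2, at 9316 ± 408, overlapped in their ranges, as did Cnn1, at 3757 ± 440.2, and Actg2, at 3006 ± 463. Srf stood at 1903 ± 74.0 per kilobase. Myh11, at 367 ± 98.8, and Lmod1, at 341 ± 71.95, were lowest and overlapped each other. With Yoda1, Acta2 at 23105 ± 6993 and Tagln at 19207 ± 2488 overlapped at the top of the order, where Acta2 ranked 30 and Tagln 39 by level per kilobase. Myh11, at 99.8 ± 53.6, and Lmod1, at 110.1 ± 54.8, stayed at its lower end.

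Yoda1 was compared with DMSO within preparations to ask which genes respond to PIEZO1 activation. All 10 contractile genes fell with Yoda1. By limma's moderated test with the preparation as a block and Benjamini-Hochberg adjustment over 15145 genes, 10 of 10 had an adjusted p under 0.05 and a lower value, while 9.16% of all genes tested were called lower and 8.53% higher. Of the 10, 7 fell by more than 1 on the log2 scale, against 1.31% of all genes. Values with Yoda1 and with DMSO did not overlap for 10 of 10, and 15.1% of all genes were lower without overlap. The median log2 fold change of the 10 genes was -1.37 and that of all genes was -0.01. Fold changes are on the log2(value + 1) scale throughout for PSCs.

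**Figure D1:**
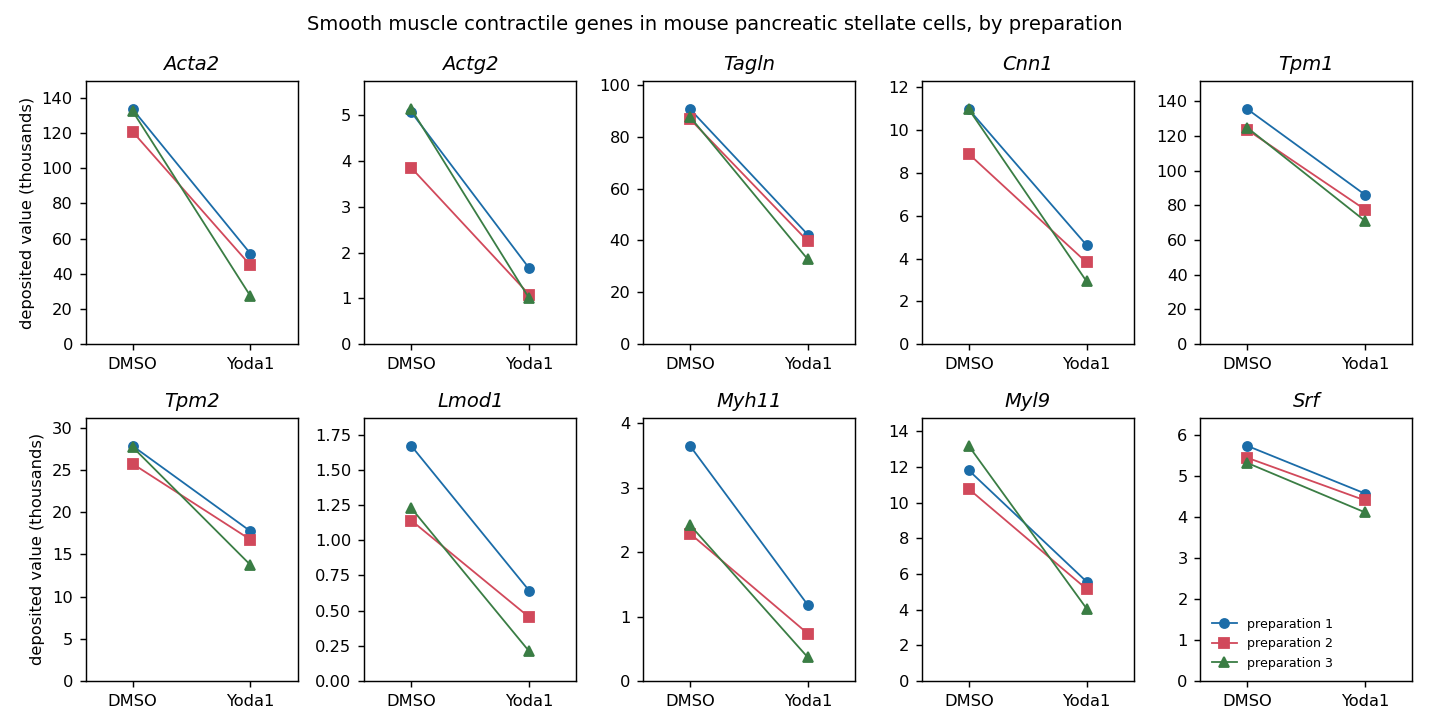
Normalized read counts (divided by 1000, linear axes from 0) of the 10 genes in PSCs with DMSO and with Yoda1; each line joins the 2 libraries of 1 preparation. Every line slopes downward, from 120680 or more to 51408 or less for Acta2, and the lines of Srf are the flattest.

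Acta2 encodes α-smooth muscle actin, the actin of myofibroblast stress fibers (chr19:34241090-34255336, minus strand). Its normalized read count was 133472, 120680 and 132329 with DMSO in preparations 1, 2 and 3, and 51408, 44748 and 27293 with Yoda1. The highest Yoda1 value was less than the lowest DMSO value, and preparation 3 was lowest with Yoda1 although it was near preparation 1 with DMSO. Acta2 fell with a log2 fold change of -1.70 ± 0.18 (SE), with a 95% confidence interval from -2.14 to -1.25 and a limma adjusted p of 0.00533. Actg2 encodes the γ-actin of enteric smooth muscle (chr6:83512905-83536265, minus strand). It was at 5064, 3849 and 5129 with DMSO and at 1657, 1083 and 1001 with Yoda1. Preparation 2 was the lowest with DMSO, and the groups lay far apart. Its log2 fold change was -1.93 ± 0.14 (SE), limma adjusted p = 0.00237.

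Tagln encodes transgelin (SM22α), an actin-binding protein of smooth muscle (chr9:45929619-45936058, minus strand). Its values were 90578, 86774 and 87633 with DMSO and 42210.1, 39681 and 32662 with Yoda1. The DMSO libraries lay close together, and all 3 Yoda1 libraries were below them. The log2 fold change was -1.22 ± 0.08 (SE), limma adjusted p = 0.00222, the smallest adjusted p among the 10 genes. Exons of 2 genes on the other strand cover 67.9% of the Tagln exon bases in GENCODE, 1241 bases by Gm48529 and 108 by Pcsk7. Gm48529 was not among the genes listed for PSCs, and the strand setting of the counting is not given in the sources used here, so reads of Tagln and of the other strand cannot be told apart there. Cnn1 encodes calponin 1, which binds actin and restrains the myosin ATPase (chr9:22099216-22109630, plus strand). It was at 10973, 8889 and 10976 with DMSO and at 4626, 3818 and 2934 with Yoda1. The groups did not overlap, and Cnn1 fell with a log2 fold change of -1.46 ± 0.14 (SE), limma adjusted p = 0.00409.

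Tpm1 and Tpm2 encode tropomyosins, which lie along the actin filament and control access of myosin. Tpm1 (chr9:67022590-67049406, minus strand) was at 135292, 123354 and 124564 with DMSO and at 85953, 77419 and 70856 with Yoda1. Tpm2 (chr4:43514711-43523765, minus strand) was at 27853, 25734 and 27716 with DMSO and at 17741, 16739 and 13741 with Yoda1. Both tropomyosins kept more of their DMSO level than the actins did. Tpm1 held 63.5%, 62.8% and 56.9% of it in preparations 1, 2 and 3, and Tpm2 held 63.7%, 65.0% and 49.6%. The log2 fold changes were -0.71 ± 0.07 (SE, limma adjusted p = 0.00463) for Tpm1 and -0.76 ± 0.09 (SE, limma adjusted p = 0.00623) for Tpm2. GENCODE lists 21 transcripts of Tpm1, muscle and non-muscle forms together, and values per gene cannot separate them.

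Lmod1 encodes leiomodin 1, which starts new actin filaments in smooth muscle (chr1:135324807-135368065, plus strand). It was at 1670, 1140 and 1227 with DMSO and at 642, 453 and 210.1 with Yoda1. No Yoda1 library reached the DMSO range, and the preparations differed more for Lmod1 than for the tropomyosins. Its log2 fold change was -1.75 ± 0.24 (SE), limma adjusted p = 0.00935. Without the preparation block, the adjusted p of Lmod1 was 0.0593, the highest of a range from 2.52e-10 over its alternatives.

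Myh11 encodes the smooth muscle myosin heavy chain, the motor of the contractile filament and a gene of mature smooth muscle (chr16:14194535-14291372, minus strand). Its values were 3650, 2288 and 2420.5 with DMSO and 1178, 733 and 364 with Yoda1. Preparation 1 was highest under both treatments, and its Yoda1 value was still below every DMSO value. The log2 fold change of -2.00 ± 0.22 (SE), limma adjusted p = 0.00574, was the largest fall of the 10, and 0.152% of all genes tested had a larger one. Myl9 encodes a regulatory light chain, whose phosphorylation switches on contraction (chr2:156775420-156781658, plus strand). It was at 11813, 10766 and 13180.4 with DMSO and at 5567, 5152 and 4056 with Yoda1. Preparation 3 had the most Myl9 with DMSO and the least with Yoda1. Its log2 fold change was -1.28 ± 0.13 (SE), limma adjusted p = 0.00463.

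Srf encodes serum response factor, the transcription factor of the set (chr17:46548329-46556175, minus strand). It was at 5741, 5450.5 and 5323 with DMSO and at 4576, 4408 and 4115 with Yoda1. The groups were close but did not overlap. Srf fell least, with a log2 fold change of -0.33 ± 0.04 (SE), limma adjusted p = 0.00827, and 10.3% of all genes tested had a larger fall. Without preparation 2, the limma adjusted p was 0.091 for Srf and 0.0659 for Tpm1, and the other 8 genes stayed below the threshold. Over their alternatives, the adjusted p ranged from 3.04e-05 to 0.091 for Srf and from 2.89e-08 to 0.0659 for Tpm1.

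**Figure D2:**
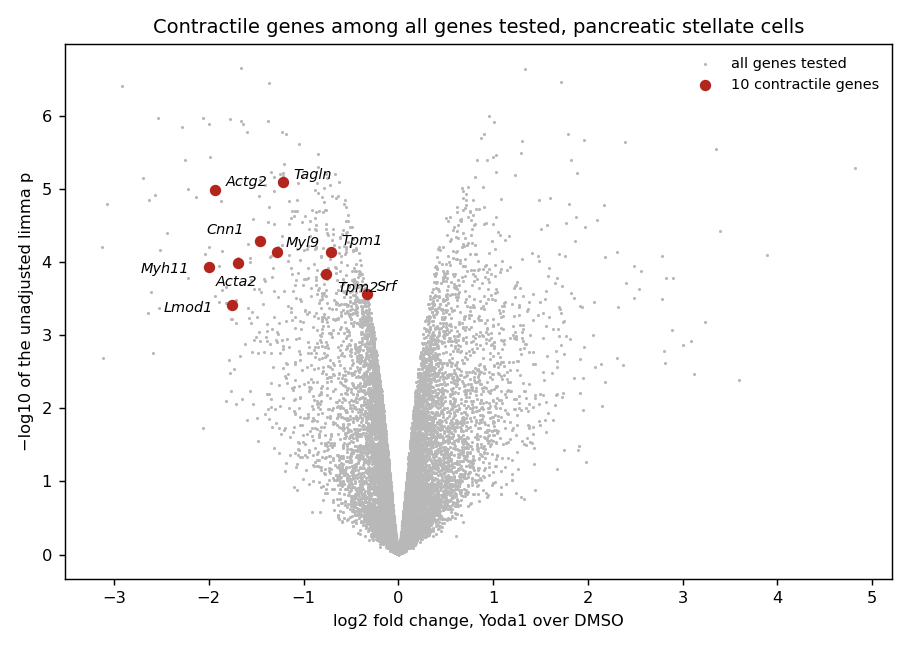
Log2 fold change of Yoda1 over DMSO (horizontal) against −log10 of the unadjusted limma p (vertical) for the 15145 genes tested in PSCs (gray) and the 10 contractile genes (red). All 10 lie on the left, with Myh11 at -2.00 farthest out and Srf at -0.33 nearest to 0.

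The size of the fall differed between preparations. For 10 of 10 genes the fall was largest in preparation 3, and the median log2 difference of the 10 genes was -1.17, -1.17 and -1.80 in preparations 1, 2 and 3. Among the 4460 genes that were lower with Yoda1 in all 3 preparations, 49.8% had their largest fall in preparation 3. Acta2 kept 38.5%, 37.1% and 20.6% of its DMSO level in the 3 preparations, and Myh11 kept 32.3%, 32.0% and 15.0%. Preparation 3 was also the one in which the summed epithelial markers were higher with Yoda1, and the summed acinar markers went from 5922 to 12107 there, against 1003 to 1259 in preparation 1. Their part in the result was not tested. Without preparation 3, all 10 genes were still called lower.

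Most of the other listed genes of this apparatus were lower too. Of 15 other smooth muscle contractile genes tested, 12 fell, 0 rose and 3 did not pass, beside 9.16% of all genes called lower and 8.53% higher, with a median log2 fold change of -0.76. The 5 with the smallest p were Synpo2 (-1.31), Csrp1 (-0.79), Fhl1 (-0.92), Smtn (-0.76) and Mylk (-1.71). Mylk encodes the kinase that phosphorylates the myosin light chain, and its normalized read count was 2271 to 3766 with DMSO and 474 to 1645 with Yoda1. Synaptopodin 2, the product of Synpo2, binds actin at the Z-disc and dense bodies, and Smtn encodes smoothelin, a protein of contractile smooth muscle. Without the preparation block 7 of the 15 were called lower, where 385 genes were called lower over the whole table, and without preparation 2 it was 6 of the 15, where 186 were. Desmin (Des), an intermediate filament gene of muscle and stellate cells, had a log2 fold change of 0.07 ± 0.05 (SE) with a limma adjusted p of 0.345.

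The non-muscle relatives of the contractile genes moved less. Of 13 tested, 7 fell, 0 rose and 6 did not pass, beside the same 9.16% and 8.53% of all genes, with a median log2 fold change of -0.32 and a range from -0.52 to -0.02. The 5 with the smallest p were Myl6 (-0.49), Cnn3 (-0.48), Myl12a (-0.47), Actg1 (-0.47) and Cnn2 (-0.52), which encode light chains, calponins and cytoplasmic γ-actin. Without preparation 2, 1 of the 13 was called lower, as were 186 over all genes. Without preparation 1 it was 5, where 1014 genes were called lower, and without preparation 3 it was 10, where 2545 were. Each of 9 contractile genes was set beside 1 non-muscle relative, in pairs picked after the values were seen. In 9 of 9 pairs the contractile gene fell more than its relative in all 3 preparations. The mean gap was smallest for Tpm1 against Tpm4, at -0.51 ± 0.08 (SD, n = 3), and largest for Myh11 against Myh9, at -1.83 ± 0.56 (SD, n = 3). Acta2 fell more than Actb, the gene of cytoplasmic β-actin, by 1.38 ± 0.52 (SD, n = 3) on the log2 scale. Because the pairs were picked with the values in view, the gaps are a description and no test was made of them.

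**Figure D3:**
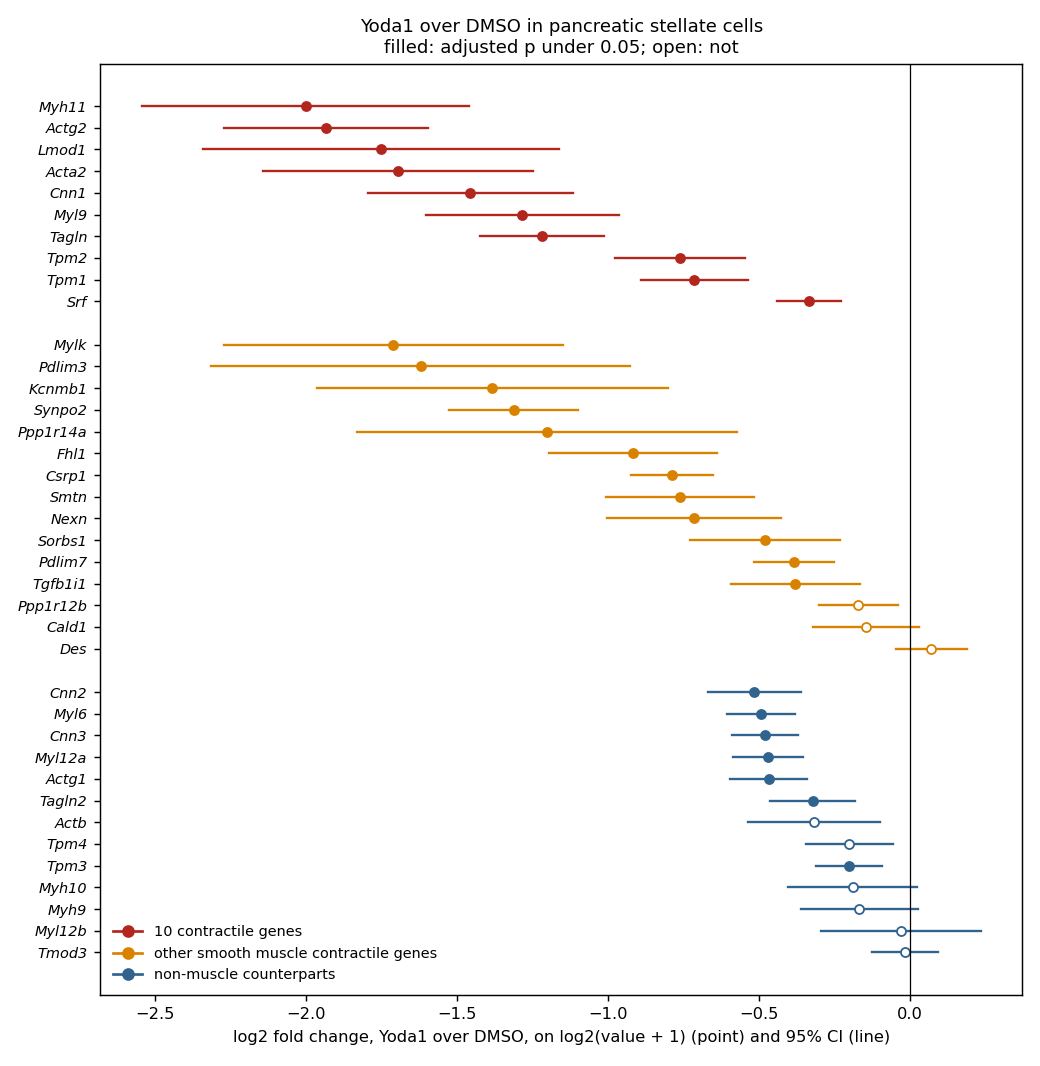
Log2 fold change of Yoda1 over DMSO with its 95% confidence interval for the 10 contractile genes (red), 15 other smooth muscle contractile genes (orange) and 13 non-muscle relatives (blue) in PSCs; filled points have a limma adjusted p under 0.05. The red points reach -2.00 for Myh11, the orange ones -1.71 for Mylk, and the blue ones stay between -0.52 and -0.02.

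Of 11 cofactors and upstream regulators of serum response factor tested, 2 fell, 1 rose and 8 did not pass, with a median log2 fold change of 0.04, where 9.16% of all genes tested were called lower and 8.53% higher. Without preparation 1 or without preparation 2, 1 of the 11 was called lower and 1 higher, and without preparation 3 it was 3 lower and 2 higher. Over all genes, 1014 were called lower and 1041 higher without preparation 1, and 186 and 166 without preparation 2. Without preparation 3 it was 2545 and 2251. Mkl1, which encodes the actin-regulated cofactor MRTF-A, was at 3787 to 4105 with DMSO and at 3195 to 3314 with Yoda1. Its log2 fold change was -0.27 ± 0.04 (SE), limma adjusted p = 0.0136. Fhl2, a LIM-domain cofactor, fell with a log2 fold change of -0.57, limma adjusted p = 0.00683. Klf4, which encodes a factor known to repress smooth muscle genes, was at 1040 to 1179 with DMSO and at 1692 to 2348 with Yoda1. It rose with a log2 fold change of 0.90 ± 0.08 (SE), limma adjusted p = 0.00319. Myocd, the gene of myocardin, was near the bottom of the range, at 29.2 to 64.8 with DMSO and 14.8 to 24.9 with Yoda1, and its log2 fold change of -1.10 had a limma adjusted p of 0.0756. Elk3, an ETS partner of the factor, had a log2 fold change of 0.11 with a limma adjusted p of 0.168.

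Markers of the cells these cultures could hold gave the following values beside the contractile genes, and their counts are to be read against the 9.16% of all genes called lower and the 8.53% called higher. Of 8 stellate cell and fibroblast markers tested, 7 fell and 1 rose, with Col3a1, a fibrillar collagen, at -1.19 and Pdgfra, a gene for a platelet-derived growth factor receptor of fibroblasts, at 0.87 on the log2 scale. Of 6 pericyte and vascular smooth muscle markers tested, 1 fell, Mcam, at -1.15, and 5 did not pass, with values from -0.21 for Cspg4 to 0.64 for Ndufa4l2, 3 of them above 0. Of 7 striated muscle genes tested, 1 fell, Acta1, the skeletal α-actin gene, at -1.18, and 1 rose, Tnnt2, a troponin gene, at 0.47. Acta1 was at 1947 to 2677 with DMSO and at 705 to 1978 with Yoda1, so its groups overlapped. Of 5 endothelial markers 1 fell (Kdr, at -1.07) and 4 did not pass, all with values above 0, from 0.53 for Pecam1 to 1.053 for Cdh5 (limma adjusted p of 0.246 and 0.0664). Of 7 epithelial markers 1 fell (Epcam, at -0.30). Of 4 leukocyte markers 0 passed in limma, with 1 of the 4 (Cd68) at an unadjusted p of 0.0134, as 35.1% of all genes were under 0.05 unadjusted. Of 5 mesothelial markers, Lrrn4 (-1.56) and Upk3b fell and Msln (0.96) rose, and of 5 acinar markers 1 rose, Ctrb1, at 0.64. The part of these cells in the fall of the contractile genes was not tested.

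In whole liver the contractile genes were scarce. Over the 8 livers, Acta2 had 17 to 66 counts, Tagln 3 to 13, Actg2 0 to 7, Cnn1 1 to 16 and Lmod1 0 to 5. Per kilobase of gene length, the mean over the 8 livers was highest for Srf, at 7.65 CPM (counts scaled to library size, with TMM), and for Tpm1, at 5.49. It was 1.46 for Myl9, 1.23 for Tpm2, 1.11 for Acta2, 0.340 for Myh11 and 0.222 for Tagln. The order differed from that of the PSCs with DMSO, where Acta2 was at the top and only Myh11 and Lmod1 were below Srf. In PSCs with Yoda1, Srf was at 1509 ± 80.7 (SD, n = 3) normalized read counts per kilobase, within the range of Cnn1, at 1386 ± 309. Of the 10 genes, 7 passed the filter on low counts, and Actg2, Cnn1 and Lmod1 did not. They are described by their counts alone.

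One liver stood apart in muscle genes. TRPV4-KO replicate 3 held 478 counts of Acta1, 197 of Tnnt3, 82 of Tnni2 and 80 of Myl1, genes of skeletal muscle, where no other liver had more than 7, 5, 7 and 4. Their names were chosen after the values were seen. This liver had the highest value for 7 of the 15 striated muscle genes listed, and their summed level was 54.0 CPM there and 1.61 to 6.45 CPM in the other livers. The livers also differed in sex by their reads. In each group 1 liver, namely replicate 1 of WT and replicate 3 of both TRPV4-KO and GSK219, held 13681 to 15754 counts of Xist and 0 of Y-linked genes, and the others held 0 to 7 counts of Xist and 2332 to 2748 of Y-linked genes. Trpv4 itself had 43 and 53 counts in WT, 15, 5 and 23 in TRPV4-KO and 20, 30 and 36 in GSK219 livers. The log2 fold change of Trpv4 in TRPV4-KO over WT livers was -1.71 ± 0.50 (SE) with an edgeR adjusted p of 0.161, and the deleted part of the gene is not given in the sources used here.

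TRPV4-KO livers were compared with WT livers, and GSK219 livers with the same 2 WT livers, to ask what loss or block of TRPV4 changes in the liver. By edgeR's quasi-likelihood test, 0 of the 7 contractile genes tested passed in TRPV4-KO over WT, where 0.165% of 15118 genes were called lower and 0.126% higher. At an unadjusted p under 0.05 it was 1 of the 7 (Myl9), against 17.1% of all genes. DESeq2 called 1 (Myl9), where it called 461 lower and 321 higher over all genes. In GSK219 over WT, 0 of 7 passed and 0% of all genes did. There 0 of 7 had an unadjusted p under 0.05, against 8.22% of all genes, and DESeq2 called 0, where it called 108 over all genes. In GSK219 over TRPV4-KO, 0 of 7 passed, where 0.0595% of all genes were called lower and 0.0463% higher. In that comparison 1 had an unadjusted p under 0.05 (Myl9), against 6.12% of all genes. DESeq2 called 0, where it called 120 over all genes.

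Myl9 values separated all 3 groups of livers. Myl9 had 45 and 42 counts in WT, 14, 11 and 22 in TRPV4-KO and 33, 29 and 27 in GSK219 livers. Scaled to library size, WT was at 2.62 ± 0.24 CPM (SD, n = 2), TRPV4-KO at 0.957 ± 0.287 (SD, n = 3) and GSK219 at 1.81 ± 0.24 (SD, n = 3). No 2 of the 3 groups overlapped, with WT highest and TRPV4-KO lowest. The share of all genes that kept the 3 groups apart was not counted. In TRPV4-KO over WT the log2 fold change was -1.44 ± 0.33 (SE), with a 95% interval from -2.20 to -0.68, an unadjusted p of 0.00226 and an edgeR adjusted p of 0.116. The summed level of the pericyte and vascular smooth muscle markers, cells in which Myl9 is also made, was 119 and 132 CPM in WT, 42.4 to 84.5 CPM in TRPV4-KO and 69.2 to 115 CPM in GSK219 livers, so it too was higher in WT than in both other groups without overlap. The part of these cells in the Myl9 value was not tested. Myl9 was the 1 gene of the 7 whose TRPV4-KO values all lay below WT, which held for 17.7% of all genes. Over the alternatives that kept both WT livers, the adjusted p of Myl9 ranged from 0.0306 by DESeq2 to 0.334 by edgeR without TRPV4-KO replicate 1. Without TRPV4-KO replicate 3, the edgeR adjusted p was 0.033. Calls over all genes rose too, from 25 lower to 461 lower by DESeq2 and 750 lower without TRPV4-KO replicate 3. In GSK219 over WT the log2 fold change of Myl9 was -0.53 ± 0.32 (SE), edgeR adjusted p = 0.741. In GSK219 over TRPV4-KO it was 0.91 ± 0.31 (SE), with an unadjusted p of 0.0176 and an edgeR adjusted p of 0.68, and 4.35% of all genes were higher without overlap in this comparison.

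Tpm1, which had more reads in livers than any other of the 10 genes, had 727 and 674 counts in WT, 480, 407 and 795 in TRPV4-KO and 464, 545 and 593 in GSK219 livers. TRPV4-KO replicate 3 was the highest of all livers, and the other TRPV4-KO livers were below both WT livers. In TRPV4-KO over WT its log2 fold change was -0.30 ± 0.22 (SE), edgeR adjusted p = 0.545. Without TRPV4-KO replicate 3 it was -0.57 with an edgeR adjusted p of 0.0484, where 750 genes were called lower, against 25 with all livers. Over the alternatives that kept both WT livers, the adjusted p of Tpm1 reached 0.872, by edgeR without TRPV4-KO replicate 2. In GSK219 over WT it was -0.37 ± 0.22 (SE), edgeR adjusted p = 0.734. GSK219 values of Tpm1 and Myl9 lay below WT without overlap, 2 of the 7 genes, as did 15.6% of all genes.

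Tpm2 had 48 and 20 counts in WT, 30, 26 and 218 in TRPV4-KO and 39, 38 and 60 in GSK219 livers. A single liver, TRPV4-KO replicate 3, gave the high value, and the rest of the livers overlapped. That is the liver with the striated muscle genes, and Tpm2 is also made in skeletal muscle. The log2 fold change was 1.39 ± 0.92 (SE) in TRPV4-KO over WT with all livers (edgeR adjusted p = 0.489), and -0.20 without this liver. The part of the striated muscle genes in the Tpm2 value was not tested.

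**Figure D4:**
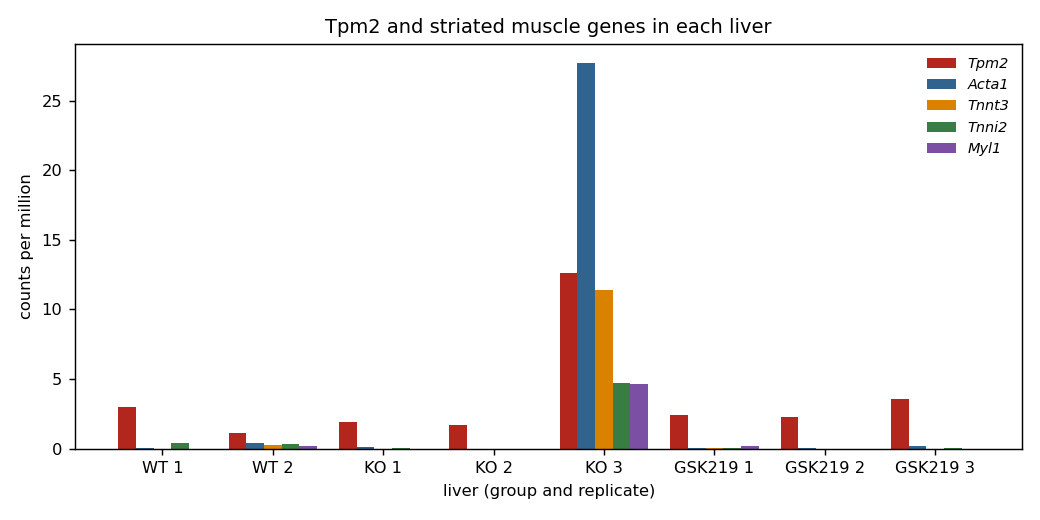
Library-scaled counts (CPM, TMM, bars from 0) of Tpm2 (red) and of the striated muscle genes Acta1, Tnnt3, Tnni2 and Myl1 in each of the 8 livers. TRPV4-KO replicate 3 reaches 12.6 CPM of Tpm2 and 27.7 CPM of Acta1, and every other liver stays at or below 3.59 CPM of Tpm2 and 0.408 CPM of Acta1.

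Acta2 had 66 and 17 counts in WT, 19, 24 and 34 in TRPV4-KO and 38, 29 and 32 in GSK219 livers. The WT livers were the highest and the lowest of all 8, so the groups overlapped throughout. Its log2 fold change was -0.68 ± 0.53 (SE) in TRPV4-KO over WT, with an interval from -1.90 to 0.54, and -0.33 ± 0.53 (SE) in GSK219 over WT, with an interval from -1.54 to 0.89. Without WT replicate 1 the values were 0.65 and 1.03, so the direction rests on 1 liver. Cnn1 was also highest in WT replicate 1, with 16 counts, and had 5 or fewer in every other liver. Tagln had 5 and 13 counts in WT, 3, 9 and 4 in TRPV4-KO and 5, 12 and 7 in GSK219 livers, with log2 fold changes of -0.68 ± 0.70 (SE) and -0.14 ± 0.67 (SE) over WT. No difference in Tagln was called in either comparison with WT.

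For Myh11 and Srf, the fitted differences from WT were near 0 in both comparisons, although single livers varied, from 1.75 to 3.40 CPM for Myh11. Myh11 had 55 and 30 counts in WT, 40, 40 and 46 in TRPV4-KO and 47, 37 and 43 in GSK219 livers. Its log2 fold change over WT was 0.01 ± 0.33 (SE) in TRPV4-KO and 0.01 ± 0.33 (SE) in GSK219 livers, with intervals from -0.73 to 0.76 and from -0.74 to 0.76. The 2 WT livers held the highest and the lowest Myh11 value of all livers. Without WT replicate 1 the values were 0.56 and 0.57, and without WT replicate 2 they were -0.40 and -0.39. Srf had 337 and 357 counts in WT, 380, 342 and 341 in TRPV4-KO and 327, 403 and 412 in GSK219 livers. The log2 fold change of Srf over WT was 0.08 ± 0.14 (SE) in TRPV4-KO and 0.15 ± 0.14 (SE) in GSK219 livers, with intervals from -0.23 to 0.39 and from -0.16 to 0.47. The intervals were narrower for Srf than for Myh11.

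**Figure D5:**
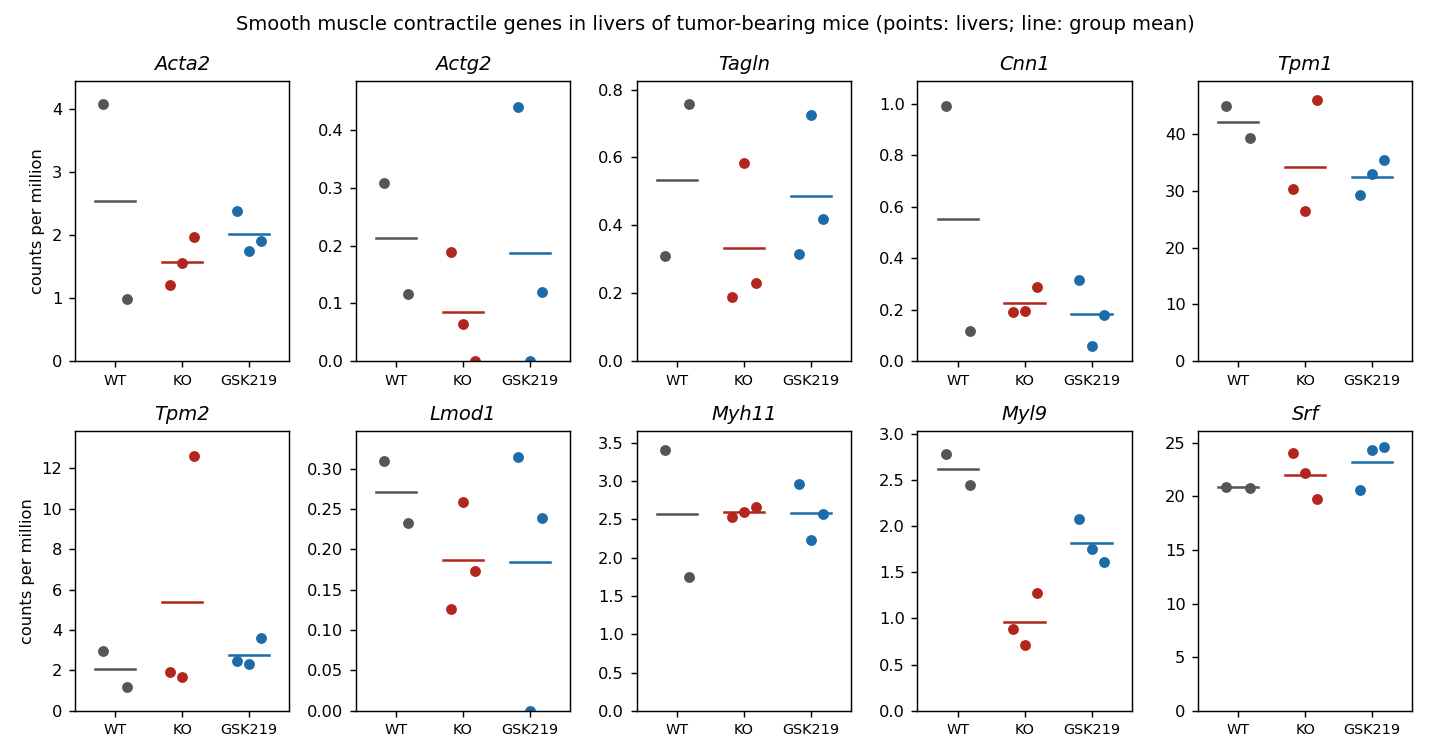
Library-scaled counts (CPM, TMM, linear axes from 0) of the 10 contractile genes in 2 WT, 3 TRPV4-KO and 3 GSK219 livers; points are livers and lines are group means. For Myl9 the 3 groups lie apart (means of 2.62, 0.957 and 1.81 CPM), Tpm2 has a single high liver at 12.6 CPM, and for Acta2 the spread of the 2 WT livers, 0.991 to 4.08 CPM, spans the other groups.

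The comparison lists gave few calls in livers. Of 14 other smooth muscle contractile genes tested, 0 passed in either comparison with WT, with medians of -0.35 for TRPV4-KO and -0.06 for GSK219. The smallest p in both was that of Csrp1, an actin-associated LIM protein gene, at -0.79 (unadjusted p = 0.0191, edgeR adjusted p = 0.207) and -0.58 (unadjusted p = 0.0663, edgeR adjusted p = 0.637). Without TRPV4-KO replicate 3, 3 of the 14 were called lower in TRPV4-KO over WT, and 1 was with the replicate block or with a term for sex. Calls over all genes rose under the same settings, from 25 lower to 750 without that liver, 394 with the block and 347 with the sex term. Of 13 non-muscle relatives, 0 passed in either, with medians of -0.37 and -0.29. DESeq2 called 1 lower and 1 higher in TRPV4-KO over WT, where it called 461 lower and 321 higher over all genes. Without TRPV4-KO replicate 3, 5 of the 13 were called lower and 1 higher there, with the replicate block 2 were called lower, and with the sex term 1 was lower and 1 higher. Of 10 cofactors and regulators of serum response factor, 0 passed in either by edgeR or, in TRPV4-KO over WT, by DESeq2, and Myocd had 0 counts in all 8 livers.

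Of 10 stellate cell and fibroblast markers, 0 passed in either comparison with WT. In TRPV4-KO over WT their median log2 fold change was -0.95, beside 0.01 for all genes, and 7 of the 10 lay below WT without overlap, as did 17.7% of all genes. In GSK219 over WT the median was -0.92, beside 0.0015 for all genes, and 9 of the 10 lay below WT without overlap, as did 15.6% of all genes. These 2 comparisons share the 2 WT livers. The summed level of these markers was 413 to 621 CPM in WT, 151 to 335 CPM in TRPV4-KO and 193 to 312 CPM in GSK219 livers. A separate list of 8 hepatic stellate cell markers overlapped between groups in its sum. It was 300.02 to 335 CPM in WT, 148 to 325 CPM in TRPV4-KO and 213 to 356 CPM in GSK219 livers. The highest sums of TRPV4-KO and GSK219 were those of replicate 3. Replicates 1 and 2 were at 184 and 148 CPM in TRPV4-KO and at 213 and 249 CPM in GSK219. Gene by gene, the median log2 fold change of this list was -0.785 in TRPV4-KO over WT and -0.33 in GSK219 over WT. Below WT without overlap lay 3 and 2 of the 8, and 0 passed in either. The summed level of the leukocyte markers was 647 to 795 CPM in WT, 209 to 429 CPM in TRPV4-KO and 210 to 500.1 CPM in GSK219 livers. The endothelial markers summed to 375 and 416 CPM in WT, 222 to 357 CPM in TRPV4-KO and 274 to 374.6 CPM in GSK219 livers, and the epithelial markers to 694 and 718 CPM in WT, 448 to 686 CPM in TRPV4-KO and 516 to 649.9 CPM in GSK219 livers. The sums of leukocyte, endothelial and epithelial markers, like that of the pericyte markers given with Myl9, did not overlap between WT and the other groups. Gene by gene, 6 of 8 leukocyte, 3 of 6 endothelial and 1 of 7 epithelial markers lay below WT without overlap in TRPV4-KO livers. In GSK219 livers it was 5 of 8, 1 of 6 and 5 of 7. The shares of all genes were the 17.7% and 15.6% given above. Krt8 and Krt18 made most of the epithelial sum, at 376 and 285 CPM in WT replicate 1. The hepatocyte markers summed to 54076 to 64941 CPM in WT, 77881 to 97307 CPM in TRPV4-KO and 76405 to 85645 CPM in GSK219 livers. Most of this sum was Alb, the albumin gene, at 31636 and 44375 CPM in WT, 54089 to 74029 CPM in TRPV4-KO and 51442 to 61769 CPM in GSK219 livers. The other 5 hepatocyte markers overlapped between TRPV4-KO and WT livers, and 4 of them, all but Ttr, between GSK219 and WT livers. For the 10 contractile genes together, the summed level was 67.7 and 81.0 CPM in WT, 56.2 to 85.0 CPM in TRPV4-KO and 61.0 to 70.7 CPM in GSK219 livers, so these groups overlapped. Only replicate 3 of TRPV4-KO, the liver with the striated muscle genes, and replicate 3 of GSK219 lay above the lower WT liver. Tpm1 and Srf made most of this sum, at 45.0 and 20.8 CPM in WT replicate 1.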

How the data were processed

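RNA-Seq was analyzed for 3 PSC preparations with DMSO or Yoda1 and for 8 livers. The PSC values deposited by the authors are a signal per gene, which the values show to be reads divided by one size factor per library: 98886 of 98886 values came out as whole reads within 0.01. The authors' own fold changes, standard errors, statistics and p-values stand beside them and were not used. For the livers the authors deposited counts without normalization, and 7 columns of counts matching no sample were not used. Per the labels, HISAT2 2.0.5 and Trim Galore were named for processing, without roles, and the counting tool is not given in the sources used here. Gene lengths and coordinates are those of the liver file (9 of 10 members as in GENCODE for GRCm38; 16286 PSC genes matched).

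PSC values were tested with limma 3.58.1 in R 4.3.3 on log2(value + 1), keeping genes at 10 or more in 3 or more libraries, with the preparation as a block. The labels name the same 3 preparations under both treatments, and same-preparation libraries deviated together (correlations of 0.43, 0.26 and 0.53 across genes). Because the values are not counts, edgeR on the recovered reads was an alternative only, and it called 2735 genes against 2680. Liver counts were tested with edgeR 4.0.16 (TMM, minimum count 10, robust quasi-likelihood fit of all 8 livers); DESeq2 1.42.0 was an alternative. A gene was called at an adjusted p under 0.05 over all genes tested. By their labels, the livers are separate mice, and the 6 PSC libraries come from 3 preparations, each with both treatments. Intervals of counts cover counting error and the spread between these samples, since reads carry no molecular identifiers. The steps were tested on simulated data.

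The members and the comparison lists were chosen with earlier results of these data known. Named were the 10 members and, of each list in each comparison, at most 5 genes with the smallest p, with Trpv4 and Piezo1 as targets; other names were chosen after their values were seen. Other alternatives were other pseudocounts, scalings and filters, the replicate block or none, a sex term, only the groups compared, a fold-change threshold, and each library left out. Shared 50-base windows of the longest transcripts were 0.352% for Acta2, 0.4% for Myh11 and 0% for the other members.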

Additional observations from a re-analysis of the deposited data

How the results depend on the processing

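In PSCs all 10 contractile genes were lower with Yoda1 under each alternative tried, and 8 to 10 of them stayed past the threshold when a preparation was left out. Without the replicate block 9 of the 10 passed, as did 7 with a log2 fold change over 1. Over all PSC genes, 2680 were called with the block, 719 without the block (385 lower, 334 higher), 449 with a log2 fold change over 1, and 352 (without preparation 2) to 4796 (without preparation 3) when a preparation was left out. The block changed no other call of the 10 genes than that of Lmod1.

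In livers the counts depended on the setting. In TRPV4-KO over WT, 44 genes were called, against 782 by DESeq2 (461 lower, 321 higher), 198 without the filter, 531 with the replicate block (394 lower, 137 higher), 535 with the sex term (347 lower, 188 higher), 20 with only the 2 groups compared and 3 to 1291 when a liver was left out, the latter without TRPV4-KO replicate 3. Of the contractile genes DESeq2 called 1, and 0 to 2 were called when a liver was left out. In GSK219 over WT, 0 genes were called, against 108 by DESeq2, 9 without the filter, 9 with the replicate block, 4 with the sex term, 2 with only the 2 groups compared and 0 to 2 when a liver was left out. In GSK219 over TRPV4-KO, 16 genes were called, against 120 by DESeq2, 44 without the filter, 45 with the sex term and 8 to 141 when a liver was left out. No contractile gene was called under the alternatives of the latter 2 comparisons. The cause was not tested.

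Directions turned where values were near 0 or rested on 1 liver. When a liver was left out, log2 fold changes in TRPV4-KO over WT ran from -1.38 to 0.65 for Acta2, -1.31 to 0.094 for Tagln, -0.40 to 0.56 for Myh11 and -0.20 to 2.19 for Tpm2. In GSK219 over WT they ran from -1.005 to 1.03 for Acta2, -0.63 to 0.65 for Tagln, -0.39 to 0.57 for Myh11 and -0.088 to 1.26 for Tpm2, and in GSK219 over TRPV4-KO from -0.11 to 0.091 for Myh11, -0.23 to 0.20 for Tpm1 and -1.39 to 0.63 for Tpm2. Myh11 was at -0.0062 in TRPV4-KO over WT with only the 2 groups compared. In GSK219 over TRPV4-KO it was at 0.0030 with RLE size factors, 0.00087 by DESeq2, 0.0020 without the filter and 0.016 with only the 2 groups compared. With the replicate block, GSK219 over WT was at 0.025 for Tagln and -0.094 for Tpm2. Livers of the same number are different mice, and the correlations of their deviations averaged 0.14 over 7 pairs (-0.48 to 0.58). With 2 WT livers, the deviations from the WT mean mirror each other. These correlations therefore cannot settle whether the numbers pair the livers. The 3 livers with 13681 or more Xist counts (replicate 1 of WT and replicate 3 of both other groups) deviated together, with correlations of 0.58 to 0.63. The one between the TRPV4-KO and GSK219 livers, at 0.58, does not rest on the mirrored WT values. Where a liver was left out of the 2 WT livers, the lone one is assumed to vary like the other groups. Depth limits the livers: Actg2, Cnn1, Lmod1 and Tagln had 16 counts or fewer in each, and counts of 2 WT mice leave wide intervals.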
